A study of Homo sapiens with 6 samples.

Results

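TNFAIP3, BIRC3, TRAF1 and CD83 are 4 targets of the transcription factor NF-kB. TNFAIP3, BIRC3 and TRAF1 restrain or relay signalling from tumour necrosis factor (TNF) receptors. The 4 genes were taken by gene symbol, and all were among the 1113 entries that each deposited table lists, of which 771 carry a symbol. The tables give RNA levels in ES2, a human ovarian cancer cell line labelled as epithelial, in 6 libraries. The 3 RUNX1-IT1 ASO libraries came from cells given an antisense oligonucleotide (ASO) against RUNX1-IT1, a non-coding transcript that arises inside the RUNX1 locus. The 3 control ASO libraries came from cells given a control oligonucleotide. The labels call the first group a knockdown, give replicate numbers 1 to 3 in both groups and leave unsaid whether separate cultures were used, so the spread behind each p-value may be technical. All libraries come from a single cell line, grown in RPMI-1640 with serum, and the labels name no stimulus such as TNF.

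NF-kB dimers are held in the cytoplasm by inhibitory proteins until receptors such as those for TNF or interleukin-1 trigger their release, and they then switch on genes that include their own inhibitors. TNFAIP3 is an enzyme that edits ubiquitin chains on receptor complex proteins and thereby ends the signal. BIRC3 is a ubiquitin ligase of the inhibitor of apoptosis family, which sits at TNF receptors and favours survival over caspase activation. TRAF1 is an adaptor that joins TRAF2 and the inhibitors of apoptosis at several TNF family receptors. CD83 is an immunoglobulin-like membrane protein best known as a marker of mature dendritic cells.

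The windows from 250 bases before to 50 bases after the annotated start of the 4 genes are shown because NF-kB binds a short, loosely conserved DNA element, the kappaB site, near many of its targets. All 4 symbols matched RefSeq (GRCh38.p14), with 7 windows, since CD83 and TRAF1 have more than 1 start. Below, 1 window is printed per gene, for CD83 its second, and the windows left out held no match. Each sequence below is written 5′ to 3′ on the gene's own strand, and capitals mark every match to the kappaB consensus of 10 letters on either strand, with overlapping matches joined.
TNFAIP3, chr6:137867009-137867308, plus strand: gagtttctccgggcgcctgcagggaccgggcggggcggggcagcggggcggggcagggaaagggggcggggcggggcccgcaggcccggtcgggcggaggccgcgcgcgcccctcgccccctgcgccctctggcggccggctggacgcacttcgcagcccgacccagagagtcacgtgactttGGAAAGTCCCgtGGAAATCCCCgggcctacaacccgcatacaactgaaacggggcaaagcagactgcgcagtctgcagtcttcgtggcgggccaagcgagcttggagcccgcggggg
BIRC3, chr11:102317234-102317533, plus strand: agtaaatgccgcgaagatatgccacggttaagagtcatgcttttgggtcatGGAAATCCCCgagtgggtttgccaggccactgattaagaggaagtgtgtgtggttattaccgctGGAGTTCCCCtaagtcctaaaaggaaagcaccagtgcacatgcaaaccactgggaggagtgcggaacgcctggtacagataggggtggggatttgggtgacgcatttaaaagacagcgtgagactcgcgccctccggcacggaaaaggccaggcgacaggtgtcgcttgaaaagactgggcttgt
CD83, chr6:14117522-14117821, plus strand: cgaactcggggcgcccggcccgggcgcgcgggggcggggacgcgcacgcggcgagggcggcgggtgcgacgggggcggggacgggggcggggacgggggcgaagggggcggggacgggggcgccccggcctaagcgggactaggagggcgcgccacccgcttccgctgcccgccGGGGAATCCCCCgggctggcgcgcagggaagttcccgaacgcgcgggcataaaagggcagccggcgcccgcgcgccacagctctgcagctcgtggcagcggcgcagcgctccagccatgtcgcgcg
TRAF1, chr9:120929122-120929421, minus strand: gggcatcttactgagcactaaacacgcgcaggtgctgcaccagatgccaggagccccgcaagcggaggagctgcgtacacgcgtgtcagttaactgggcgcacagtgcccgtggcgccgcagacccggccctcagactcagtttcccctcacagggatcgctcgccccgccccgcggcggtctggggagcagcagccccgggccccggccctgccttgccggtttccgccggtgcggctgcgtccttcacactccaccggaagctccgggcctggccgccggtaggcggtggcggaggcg

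TNFAIP3 held a pair of matches, at 67 to 58 and 55 to 46 bases before its RefSeq start. The GENCODE start of TNFAIP3, at 137867188, lies further upstream, so both matches fall after that start. BIRC3 also held a pair, at 199 to 190 and 135 to 126 bases before its start. The same 10 bases, GGAAATCCCC, stood in the TNFAIP3 and BIRC3 windows. The second CD83 window held 1 run of 12 bases at 76 to 65 bases before the start, in which several matches overlap. The first CD83 window and the 3 TRAF1 windows held none. The GENCODE start of CD83, at 14117256, lies upstream of the second CD83 window, so the CD83 run also falls after the GENCODE start. The consensus matched in 5.91% of all 35116 RefSeq windows and in 8.1% of the 679 windows of listed genes. The motif was chosen after the sequences were seen. The matches are descriptions of sequence, and no binding was measured.

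In GENCODE release 29 on GRCh38, TNFAIP3 (ENSG00000118503.14) lies on the plus strand of chromosome 6 from 137867188 to 137883312 and CD83 (ENSG00000112149.9) on the same strand from 14117256 to 14136918. BIRC3 (ENSG00000023445.13) lies on the plus strand of chromosome 11 from 102317450 to 102339403, and TRAF1 (ENSG00000056558.10) on the minus strand of chromosome 9 from 120902393 to 120929173. All 4 are protein-coding, with 10 merged exons in TNFAIP3, 12 in BIRC3, 10 in TRAF1 and 6 in CD83. An antisense gene shares 95 exonic bases with TNFAIP3, 1.88% of its merged exons, and no other annotated gene overlaps the 4. No other listed entry among the 727 symbols with coordinates lay within 200 kb of any of the 4 genes, so BIRC2, the neighbouring inhibitor of apoptosis gene, is among the genes not analysed here.

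The values are read counts scaled to library size (CPM), and their even spacing puts the libraries at 17100000 to 21200000 reads. The listed entries summed to 3628.1 to 3894.0 CPM in RUNX1-IT1 ASO libraries and 10175.5 to 11070.3 CPM in control ASO libraries. By group means, 1081 entries were lower and 32 higher under the RUNX1-IT1 ASO, and the smallest fold in either direction was 1.99. The tables therefore appear to hold genes already chosen because they differed between these libraries, so a fall of any listed gene, with its p-value, is not independent evidence. RUNX1-IT1 and RUNX1 are not among the listed entries, so the level of the target was not analysed here and gives no check of the labels. RNA was measured in bulk, where fewer cells of a type and less RNA per cell cannot be told apart.

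All 4 genes were lower under the RUNX1-IT1 ASO, by 7.48-fold for TRAF1, 4.87-fold for TNFAIP3, 3.86-fold for BIRC3 and 2.14-fold for CD83. All 4 passed a limma test at an adjusted p under 0.05, where 97.5% of the 489 genes tested were called lower and 2.04% higher. For each of the 4, the highest RUNX1-IT1 ASO library was under the lowest control ASO library, as it was for 97.1% of tested genes. Nearly all tested genes thus gave the same calls, so the calls say little about the 4 genes beyond their place in the tables. The sizes of the falls are given gene by gene. Together the 4 genes came to 62.2, 65.5 and 67.8 CPM across RUNX1-IT1 ASO replicates 1 to 3, against 298.9, 278.5 and 292.8 CPM in control ASO replicates 1 to 3. That was 1.72 to 1.74% of the listed CPM in RUNX1-IT1 ASO libraries and 2.65 to 2.77% in control ASO libraries.

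**Figure D1:**
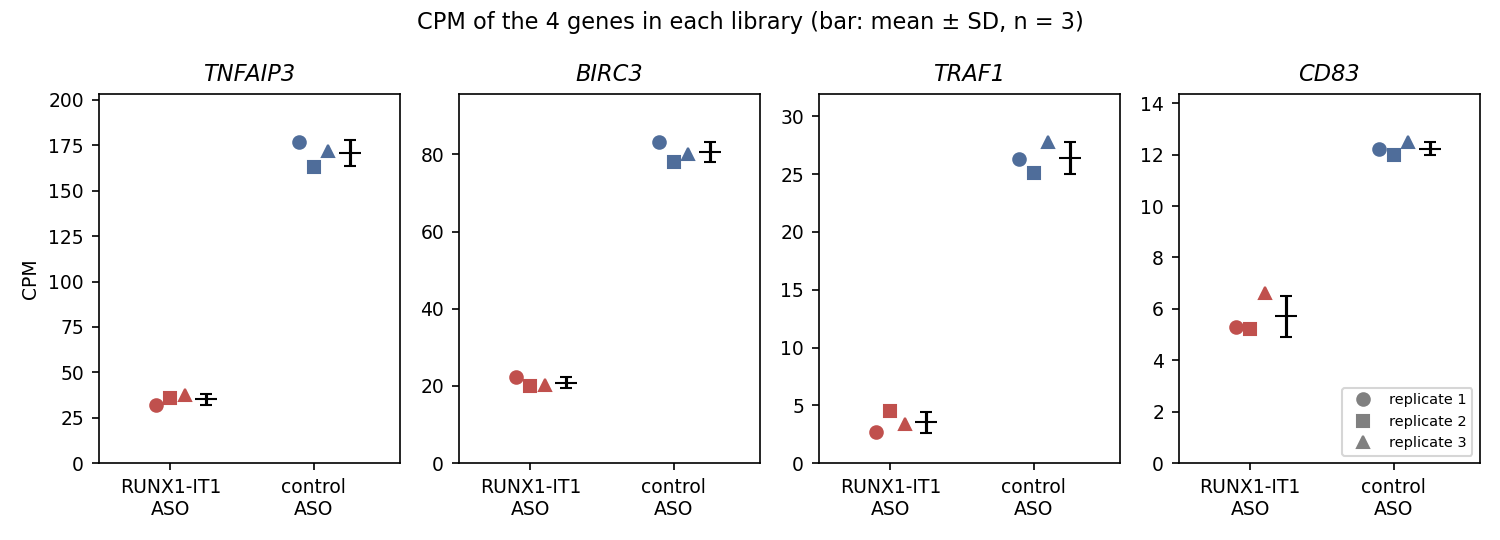
CPM of TNFAIP3, BIRC3, TRAF1 and CD83 (vertical axes, each from 0) in each RUNX1-IT1 ASO and control ASO library, with the replicate number as symbol and the mean ± SD (n = 3) as a bar. The groups do not overlap in any panel, and the RUNX1-IT1 ASO libraries stand nearest to the controls by fold for CD83, at 5.22 to 6.62 CPM against 12.0 to 12.5 CPM.

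TNFAIP3, the ubiquitin-editing inhibitor, had the highest level of the 4 per kilobase of merged exons. It stood at 31.9, 35.8 and 37.5 CPM in RUNX1-IT1 ASO replicates 1 to 3, against 177, 163 and 172 CPM in control ASO replicates 1 to 3. The highest RUNX1-IT1 ASO library lay 126 CPM under the lowest control ASO library. The means were 35.1 ± 2.88 CPM in RUNX1-IT1 ASO libraries and 171 ± 7.05 CPM in control ASO libraries (SD, n = 3 each). On the log2(CPM + 1) scale, TNFAIP3 fell by 2.25 ± 0.08 (SE, limma, adjusted p = 1.2e-10). Its change ranked 23 among the 489 tested genes, counted from the most lowered, but 80 with a pseudocount of 0.1 CPM and 56 after rescaling the libraries to equal listed totals.

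BIRC3, the inhibitor of apoptosis, stood at 22.4, 19.9 and 20.3 CPM in RUNX1-IT1 ASO replicates 1 to 3, against 83.3, 78.1 and 80.2 CPM in control ASO replicates 1 to 3. Replicate 1 was the highest of the RUNX1-IT1 ASO libraries for BIRC3, while it was the lowest for TNFAIP3 and TRAF1. The means were 20.9 ± 1.31 CPM in RUNX1-IT1 ASO libraries and 80.5 ± 2.61 CPM in control ASO libraries (SD, n = 3 each). BIRC3 fell by 1.90 ± 0.08 on the log2 scale (SE, limma, adjusted p = 4.54e-10), at rank 41, or at rank 135 with a pseudocount of 0.1 CPM and 121 after rescaling. It had the smallest relative spread of the 4 between RUNX1-IT1 ASO libraries, with a coefficient of variation of 6.26%.

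TRAF1, the receptor adaptor, had the largest fall of the 4 and the largest relative spread. It stood at 2.67, 4.52 and 3.40 CPM in RUNX1-IT1 ASO replicates 1 to 3, which correspond to about 50, 84 and 58 reads. Control ASO replicates 1 to 3 stood at 26.3, 25.1 and 27.8 CPM, or about 528, 433 and 590 reads. The fold between single libraries therefore ran from 5.55 to 10.4, with no overlap between the groups. The means were 3.53 ± 0.929 CPM in RUNX1-IT1 ASO libraries and 26.4 ± 1.37 CPM in control ASO libraries (SD, n = 3 each). The SD between RUNX1-IT1 ASO libraries was 0.929 CPM, against 0.442 CPM from counting error alone, and the coefficient of variation was 26.3%, against 5.18% in control ASO libraries. TRAF1 fell by 2.62 ± 0.14 on the log2 scale (SE, limma, adjusted p = 1.93e-09), at rank 10, or at rank 24 with a pseudocount of 0.1 CPM. For TNFAIP3, BIRC3 and CD83 the SD between RUNX1-IT1 ASO libraries was 2.88, 1.31 and 0.788 CPM, against 1.39, 1.07 and 0.563 CPM from counting error alone.

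CD83, the dendritic cell marker, was the least lowered of the 4. It stood at 5.29, 5.22 and 6.62 CPM in RUNX1-IT1 ASO replicates 1 to 3, against 12.2, 12.0 and 12.5 CPM in control ASO replicates 1 to 3. The groups were 5.43 CPM apart at their nearest libraries, with means of 5.71 ± 0.788 CPM in RUNX1-IT1 ASO libraries and 12.2 ± 0.231 CPM in control ASO libraries (SD, n = 3 each). The control ASO libraries were closer together than counting error alone gives on average, 0.794 CPM. CD83 fell by 0.99 ± 0.11 on the log2 scale (SE, limma, adjusted p = 1.93e-06), at rank 314, and it stood at 0.35 (adjusted p = 0.0235, limma) once libraries were rescaled to equal listed totals. That rescaling moved the median of all tested genes from -1.11 to -0.06, so the positive value says that CD83 fell less than the listed total, which was 2.83-fold lower. TNFAIP3 stood at -0.78, BIRC3 at -0.44 and TRAF1 at -1.31 after the same rescaling, all still called lower (limma), where 24.1% of tested genes were.

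**Figure D2:**
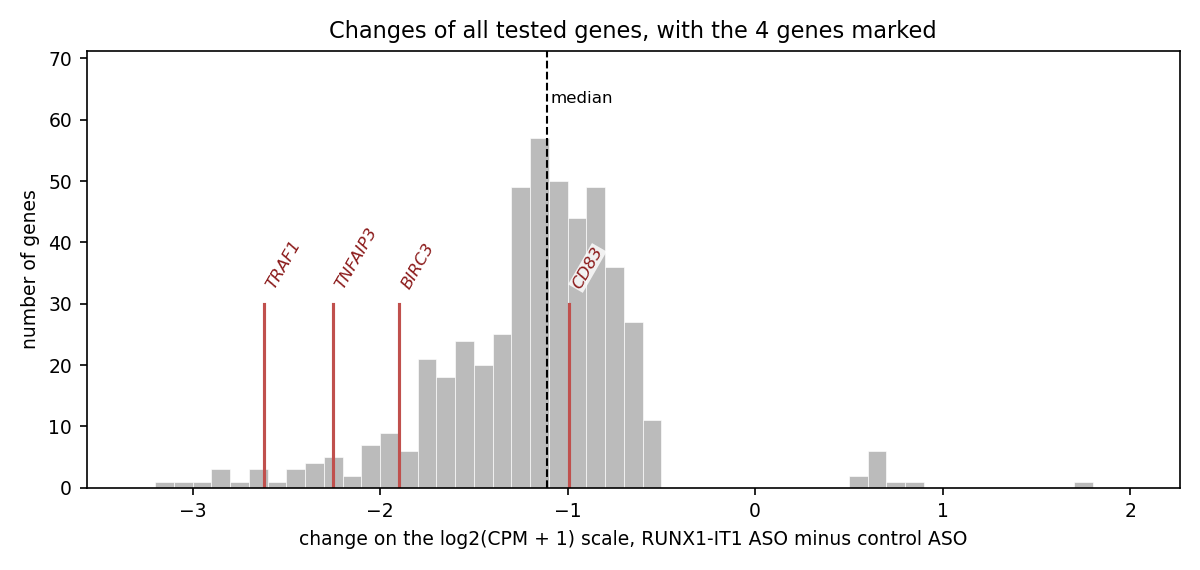
Number of genes (vertical axis) by change on the log2(CPM + 1) scale, RUNX1-IT1 ASO minus control ASO (horizontal axis), for the 489 tested genes, with the 4 genes marked in red and the median dashed. TRAF1 at -2.62, TNFAIP3 at -2.25 and BIRC3 at -1.90 lie left of the 25th percentile of -1.43, and CD83 at -0.99 lies right of the median of -1.11. With a pseudocount of 0.1 CPM, BIRC3 ranked 135 of 489, which is right of the 25th percentile.

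The levels of the 4 genes were compared with one another per kilobase of merged exons, since CPM alone favours long transcripts. In RUNX1-IT1 ASO libraries TNFAIP3 averaged 6.95 ± 0.57 CPM per kb, BIRC3 2.77 ± 0.174, CD83 2.27 ± 0.314 and TRAF1 0.547 ± 0.144 (SD, n = 3 each). In control ASO libraries TNFAIP3 averaged 33.8 ± 1.39 CPM per kb, BIRC3 10.7 ± 0.348, CD83 4.86 ± 0.0917 and TRAF1 4.09 ± 0.212 (SD, n = 3 each). The order was the same in both groups. The closest neighbours under the RUNX1-IT1 ASO were BIRC3, at 2.65 to 2.97 CPM per kb, and CD83, at 2.07 to 2.63, whose ranges nearly touched. In control ASO libraries the closest were CD83, at 4.79 to 4.97, and TRAF1, at 3.89 to 4.31. Merged exons join all annotated transcripts, so these levels depend on which transcripts ES2 cells use.

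A ratio between genes within 1 library does not depend on how that library was scaled, so the ratios show whether the 4 genes fell to the same extent. In all 6 pairs the RUNX1-IT1 ASO libraries lay apart from the control ASO libraries. The 6 pairs share 4 genes and are not independent. How often ratios of other tested genes lie apart was not computed, so this count cannot be read as particular to the 4 genes. With 3 libraries against 3 the smallest two-sided exact permutation p is 0.1, which all 6 pairs reached and which stayed at 0.1 after Benjamini-Hochberg adjustment over the 6, so none could pass 0.05. TRAF1 and CD83 differed most. The TRAF1 to CD83 ratio of CPM was 0.505, 0.866 and 0.513 in RUNX1-IT1 ASO replicates 1 to 3, against 2.16, 2.08 and 2.23 in control ASO replicates 1 to 3. The mean log2 ratio was -0.72 ± 0.44 under the RUNX1-IT1 ASO and 1.11 ± 0.05 under the control ASO (SD, n = 3 each), a difference of -1.83.

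The log2 ratio of TNFAIP3 to CD83 differed by -1.18 and that of BIRC3 to CD83 by -0.84, RUNX1-IT1 ASO minus control ASO. The log2 ratios of BIRC3 and TNFAIP3 to TRAF1 were higher by 0.98 and 0.65 under the RUNX1-IT1 ASO, though with 1 CPM added to each value the TNFAIP3 to TRAF1 difference was 0.36. The difference between TNFAIP3 and BIRC3 was the smallest of the 6, and with 1 CPM added, at -0.35, it was close to that of TNFAIP3 to TRAF1. Their CPM ratio was 1.43, 1.80 and 1.85 in RUNX1-IT1 ASO replicates 1 to 3, against 2.13, 2.09 and 2.15 in control ASO replicates 1 to 3. Their log2 difference was -0.34, and it was -0.22 without RUNX1-IT1 ASO replicate 1, the library with the lowest TNFAIP3 and the highest BIRC3. In each pair the SD of the log2 ratio was larger between RUNX1-IT1 ASO libraries, at 0.14 to 0.46, than between control ASO libraries, at 0.02 to 0.07. Relative counting error is also larger at the lower levels, and its part in this spread was not tested.

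**Figure D3:**
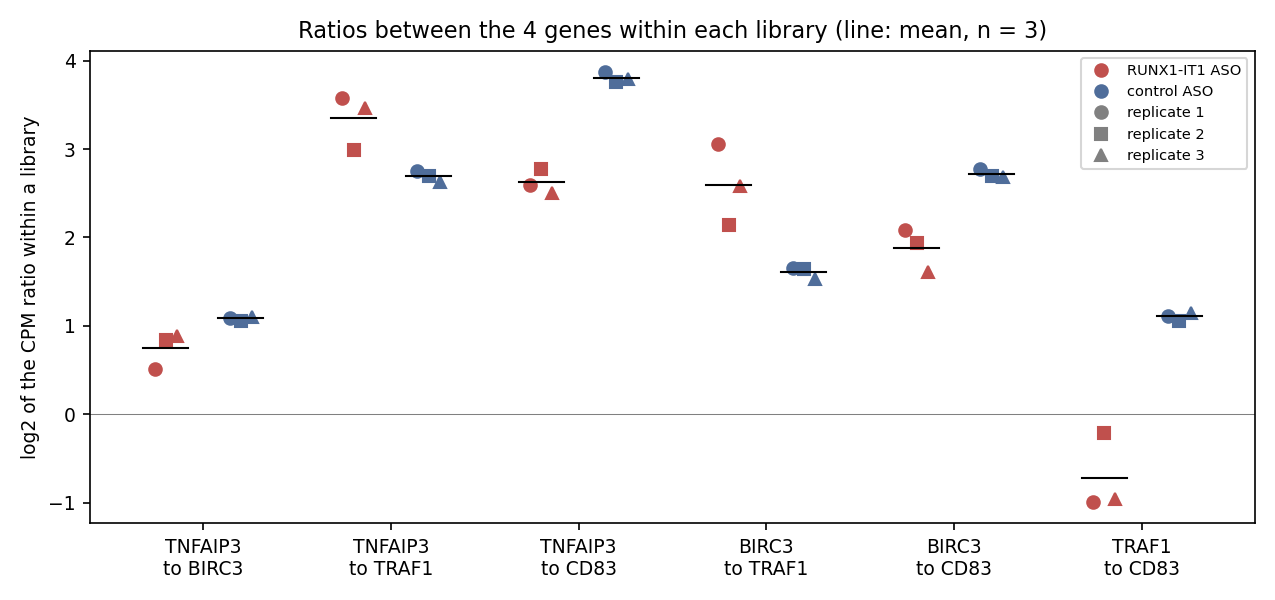
Log2 of the CPM ratio within a library (vertical axis) for the 6 pairs of the 4 genes (horizontal axis), with RUNX1-IT1 ASO libraries in red, control ASO libraries in blue, the replicate number as symbol and the mean as a line. The 2 groups are apart in each pair, least for TNFAIP3 to BIRC3 (0.75 and 1.09 on average) and most for TRAF1 to CD83 (-0.72 and 1.11). Pairs of other genes were not compared.

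Other genes of the pathway were taken from 7 lists by role, 153 genes in all, of which 28 were listed and 26 tested. All 26 were called lower in limma and 0 higher, with a median change of -1.33, against -1.11 over all tested genes, where 97.5% were called lower. After rescaling to equal listed totals 11 were called lower, among them TNFAIP3, BIRC3 and TRAF1, and 2 higher, with a median of -0.17. Of all tested genes 24.1% were then called lower and 8.79% higher, with a median of -0.06. Apart from TNFAIP3, BIRC3 and TRAF1, 23 were tested and 23 were lower before rescaling, with a median of -1.28. Of these 23, GADD45B, at 1.98 ± 0.10, had a fall larger than that of BIRC3 by less than the standard errors. The order depends on the scale, since adding 1 CPM shrinks the change of low genes. By fold of the mean CPM, TNFSF8 (8-fold), TNFSF9 (7.48-fold), IL6 (5.89-fold) and IL23A (5.53-fold) were lowered more than TNFAIP3 (4.87-fold), and TNFSF8 also more than TRAF1 (7.48-fold). TNFRSF9 (4.93-fold) was nearly equal to TNFAIP3. Some of these folds rest on few reads. TNFSF9 stood at 0.214, 0.43 and 0.117 CPM in RUNX1-IT1 ASO replicates 1 to 3, and 3 reads are 0.176 CPM in replicate 3. IL23A stood at 0.481, 0.43 and 0.234 CPM in the same libraries.

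Of 21 inhibitors and feedback regulators of NF-kB, 4 were listed. Each of the 4 fell, where 97.5% of all tested genes were called lower. Their median of -1.34 stood at 0.12 after rescaling to equal listed totals. NFKBIA, the inhibitor that holds NF-kB in the cytoplasm, was at 22.8, 28.6 and 28.1 CPM in RUNX1-IT1 ASO replicates 1 to 3, against 70.8, 67.7 and 75.4 CPM in control ASO replicates 1 to 3. NFKBIA fell by 1.40 ± 0.10 on the log2 scale (SE, limma, adjusted p = 2.32e-08), and stood at 0.06 after rescaling, where it was no longer called. NFKBIE, a related cytoplasmic inhibitor, fell by 1.28 and stood at 0.17 after rescaling, also no longer called. NFKBIZ, a nuclear regulator of the same family, fell by 1.00 and stood at 0.42 after rescaling, where it was called higher (limma, adjusted p = 0.00339). TNFAIP3 thus had the largest fall of the 4 listed feedback genes and was the only one still called lower after rescaling.

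Of 34 TNF receptor adaptors, ubiquitin ligases and kinases, 3 were listed. Each of the 3 fell, where 97.5% of all tested genes were called lower, and their median of -1.39 stood at -0.41 after rescaling. Beside TRAF1 these were IRAK2, a kinase of interleukin-1 receptor signalling, and CASP10, an initiator caspase. IRAK2 averaged 7.87 ± 0.486 CPM in RUNX1-IT1 ASO libraries and 22.3 ± 0.612 CPM in control ASO libraries (SD, n = 3 each), and its change of -1.39 was no longer called after rescaling (adjusted p = 0.979, limma). CASP10 averaged 0.499 ± 0.0801 CPM in RUNX1-IT1 ASO libraries and 2.35 ± 0.285 CPM in control ASO libraries (SD, n = 3 each), a 4.71-fold difference. Of 14 inhibitors of apoptosis and survival targets, BIRC3 and GADD45B were listed and both fell, where 97.5% of all tested genes were called lower. The median of these 2, -1.94, stood at -0.47 after rescaling. GADD45B, a stress-induced growth arrest and survival gene, averaged 57.2 ± 7.39 CPM in RUNX1-IT1 ASO libraries and 227 ± 15.3 CPM in control ASO libraries (SD, n = 3 each).

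Of 29 TNF receptors, TNFRSF9, a costimulatory receptor that recruits TRAF1, was the 1 listed. It stood at 0.802, 0.914 and 0.820 CPM in RUNX1-IT1 ASO replicates 1 to 3, against 4.13, 4.23 and 4.15 CPM in control ASO replicates 1 to 3, and fell by 1.49 ± 0.12 on the log2 scale (SE, limma, adjusted p = 7.5e-08). Of 18 TNF family ligands, 8 were listed and 6 could be tested. Each of the 6 fell, where 97.5% of all tested genes were called lower. Their median of -1.19 stood at -0.16 after rescaling. On the log2(CPM + 1) scale TNFSF8 fell by 1.59, LTB by 1.30, TNFSF9, the ligand of TNFRSF9, by 1.20 and TNFSF13 by 1.17, though after rescaling LTB and TNFSF13 were no longer called and TNFSF13 stood at 0.02. With a pseudocount of 0.1 CPM the falls were 2.73 for TNFSF8, 2.57 for TNFSF9, 1.86 for LTB and 1.45 for TNFSF13, which puts TNFSF9 ahead of LTB. TNF itself was below the filter on low values, at 0.117 to 0.323 CPM in RUNX1-IT1 ASO libraries and 0.811 to 1.32 CPM in control ASO libraries.

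Of 32 secreted and surface targets of NF-kB, 10 were listed. Each of the 10 fell, where 97.5% of all tested genes were called lower, and their median of -1.30 stood at -0.07 after rescaling. After rescaling 3 of the 10 were called lower and 1 higher, against 24.1% and 8.79% of all tested genes. The 1 called higher was IL11, at 0.44 (limma, adjusted p = 0.000473). IL6, an inflammatory cytokine, fell by 1.83 and IL32, another cytokine, by 1.75, and both were still called after rescaling. IRF1, an interferon regulatory factor, fell by 1.47 and CSF1, a macrophage growth factor, by 1.39, and neither was called after rescaling. None of the 5 Rel and NF-kB subunit genes was listed, so the factor itself was not analysed here.

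**Figure D4:**
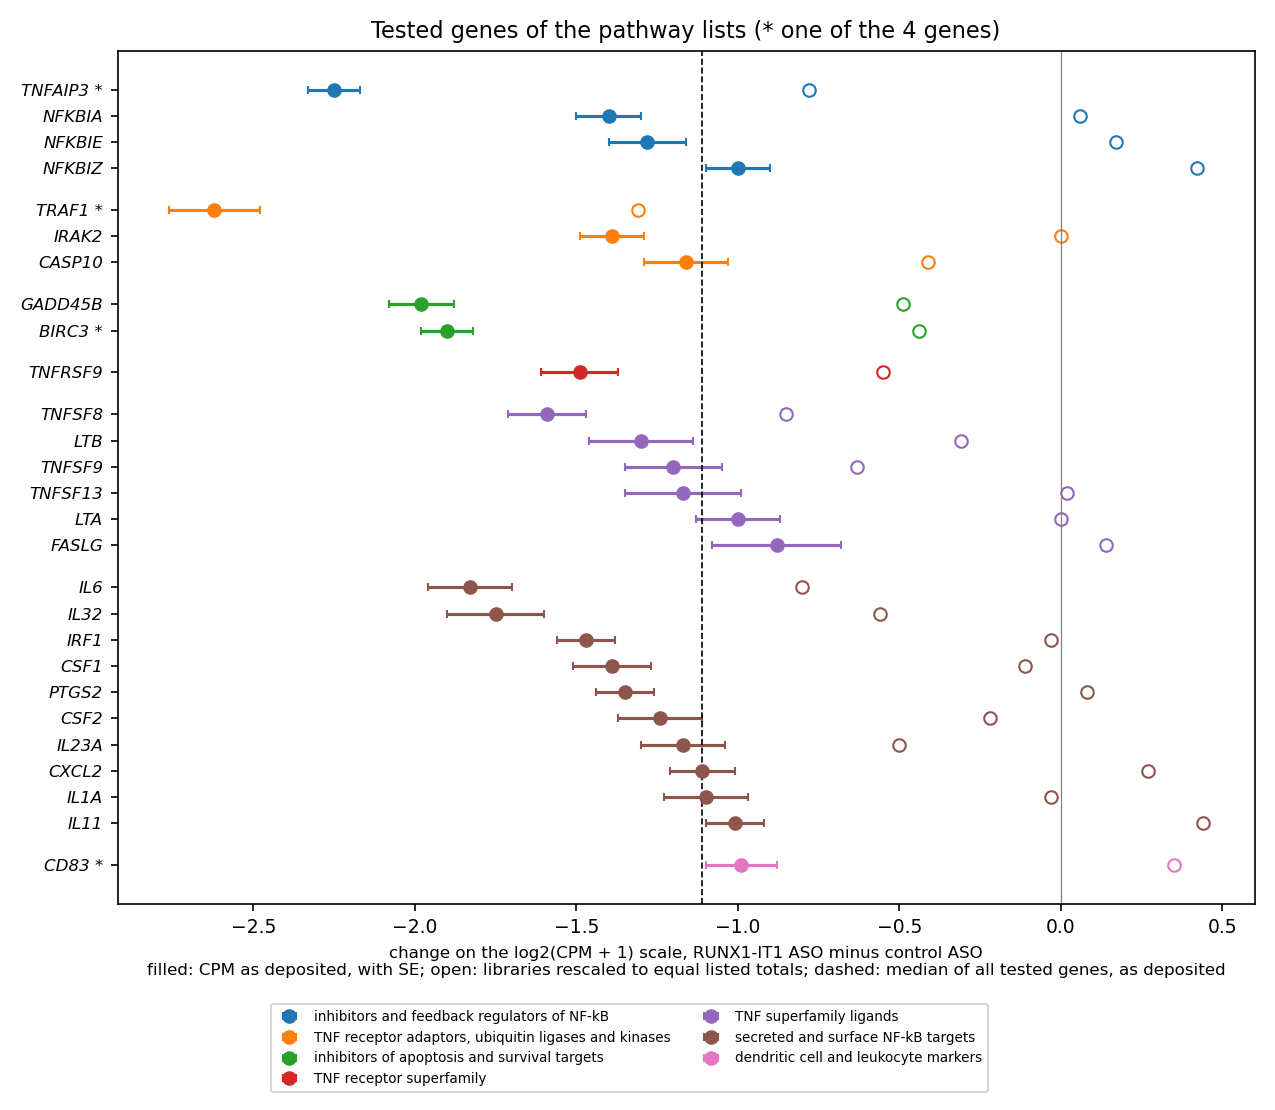
Change on the log2(CPM + 1) scale, RUNX1-IT1 ASO minus control ASO (horizontal axis), of the 26 tested pathway genes and of CD83, grouped by list in colour, with filled points and SE for CPM as deposited, open points after rescaling to equal listed totals and the median of all tested genes dashed. All filled points lie below 0, while open points of CD83, NFKBIA, NFKBIE, NFKBIZ and several ligands and secreted targets lie above 0.

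CD83 was also read against 26 markers of dendritic cells and leukocytes, of which CD83 and ITGAM, a leukocyte integrin, were the 2 listed. ITGAM stood at 0.214, 0.108 and 0.059 CPM in RUNX1-IT1 ASO replicates 1 to 3, against 1.84, 1.62 and 1.70 CPM in control ASO replicates 1 to 3. ITGAM was below the filter on low values and was not tested. In RUNX1-IT1 ASO replicates 2 and 3 it was under the level of 3 reads (0.161 and 0.176 CPM). CD83 and ITGAM together summed to 5.32 to 6.68 CPM in RUNX1-IT1 ASO libraries and 13.7 to 14.2 CPM in control ASO libraries, most of it CD83. The defining leukocyte gene PTPRC and the dendritic cell genes CD80, CD86, CCR7 and HLA-DRA were not listed, and the part of such cells in the CD83 result was not tested. Of 20 ovarian and epithelial markers, PAX8 and ESR1 were listed, at 3.12 to 4.33 CPM summed in RUNX1-IT1 ASO libraries and 8.77 to 10.7 CPM in control ASO libraries, and of 12 fibroblast and endothelial markers 0 were listed. PAX8 and ESR1 fell by 1.04 and 0.90 (limma), with a list median of -0.97, though neither was called after rescaling and PAX8 then stood at 0.19. Markers outside these 3 lists were not read, though leukocyte genes such as CD163 and MRC1 were also among the listed entries. The listed members of these lists are too few to check the labelled cell type.

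The genes with profiles nearest to each of the 4 were found by the Euclidean distance between log2(CPM + 1) values over the 6 libraries, each gene centred on its own mean. RFPL4A, EGR2, an immediate early zinc finger factor, and NR1D1, a repressor of the circadian clock, were nearest to TNFAIP3, at distances of 0.11, 0.12 and 0.13. SNORD3A, a small nucleolar RNA, TUFT1 and STK4-AS1 were nearest to BIRC3, at 0.17, 0.18 and 0.19. ALOXE3, an epidermal lipoxygenase gene, SNAI1, a zinc finger repressor that shuts off E-cadherin, and RND1 were nearest to TRAF1, at 0.31, 0.31 and 0.42. IFIT3, an interferon-induced gene, ETS2, a transcription factor, and LOC729603 were nearest to CD83, at 0.13, 0.15 and 0.15.

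A short distance marks a like change on the log2(CPM + 1) scale, not a like fold, since that scale shrinks the change of low genes. RFPL4A averaged 0.259 ± 0.0405 CPM in RUNX1-IT1 ASO libraries and 5.17 ± 0.268 CPM in control ASO libraries (SD, n = 3 each), a far larger fold than that of TNFAIP3. None of the 4 genes was among the 3 nearest of another. NR1D1 averaged 22.9 ± 2.01 CPM in RUNX1-IT1 ASO libraries and 117 ± 3.78 CPM in control ASO libraries, and ETS2 averaged 97.0 ± 6.0 CPM in RUNX1-IT1 ASO libraries and 201 ± 10.4 CPM in control ASO libraries (SD, n = 3 each). SNAI1 averaged 3.81 ± 0.843 CPM in RUNX1-IT1 ASO libraries and 33.1 ± 1.80 CPM in control ASO libraries (SD, n = 3 each). Reads of RFPL4A can be shared with near-identical copies, and those of STK4-AS1 with genes on the opposite strand, since the strand setting was not given in the sources used here.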

How the data were processed

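RNA of ES2 cells was sequenced in 3 RUNX1-IT1 ASO and 3 control ASO libraries. Per the labels' protocols these were mRNA-focused libraries from total RNA. Per the submitters' processing notes, FastQC 0.11.9 and fastp 0.22.0 were used, with build GRCh38. Not given in the sources used here: aligner, counter, annotation, strand setting and gene filter. The authors deposited CPM, a unit read from the values: below 16 CPM all values lay within 0.011 of a whole number of evenly spaced steps, taken as 1 read of 0.0471 to 0.0586 CPM. Read numbers and floors (3 reads, 0.141 to 0.176 CPM) follow from these steps and cover counting error only. The smallest values of the control libraries lie above 1 step, so no count test was run. Chi-square per degree of freedom of implied reads was 1.95 to 2.70 between replicates, so none agreed within sampling noise.

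In R 4.3.3, limma 3.58.1 with a mean-variance trend was fitted to log2(CPM + 1), with group as the only term, for the 489 symbols averaging 1 CPM or more over the libraries. The other 282 named genes and the 342 entries with no symbol (9.35 to 10.4% of listed CPM) were left out. Benjamini-Hochberg adjustment covered all tested genes, and the threshold was 0.05 with no minimum fold. The fit was tested on simulated data with as many rises as falls. Nearly all tested genes fell here, so that test does not check these calls. Ratios were compared by two-sided exact permutation (scipy 1.17.1). Named genes are the 4 genes, their 3 nearest profiles each, the 4 most changed tested genes per list (or fewer), and listed neighbours within 200 kb. The genes and lists were chosen with earlier results of these data known. Alternatives covered pseudocount, filter, entries, scaling, replicate block, trend and left-out libraries.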

Additional observations from a re-analysis of the deposited data

How the results depend on the processing

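TNFAIP3, BIRC3 and TRAF1 kept their direction and call under all alternatives run, and CD83 under all but rescaling to equal listed totals, where it stood at 0.35. With 1 library left out, the changes ran from -2.30 to -2.19 for TNFAIP3, -1.95 to -1.87 for BIRC3, -2.77 to -2.47 for TRAF1 and -1.08 to -0.93 for CD83. The counts of all genes called lower and higher were 750 and 19 with no filter, 165 and 0 when a mean of 5 CPM was required (limma, 0 of 165 higher at an unadjusted p under 0.05) and 118 and 43 after rescaling. Pathway genes called lower and higher were 14 and 0 at 5 CPM and 11 and 2 after rescaling. By construction, filters change how many genes are tested, and rescaling centres genes that nearly all fell. After rescaling, signs also reversed for NFKBIA (0.06), NFKBIE (0.17), NFKBIZ (0.42), FASLG (0.14), TNFSF13 (0.02), CXCL2 (0.27), IL11 (0.44), PTGS2 (0.08), PAX8 (0.19), IFIT3 (0.42), ETS2 (0.45) and LOC729603 (0.15). The replicate numbers showed no shared effect in the tested genes (same-number correlations of deviations -0.24, -0.10 and -0.02, different-number ones -0.13 to 0.18). With 3 libraries per group this cannot tell whether same-number samples were handled together. With a replicate block 478 genes were called lower, TNFAIP3, BIRC3, TRAF1 and CD83 stood at -2.25, -1.90, -2.62 and -0.99, all still called, and the 6 ratio differences kept their values. Depth limits TRAF1 most, at 50 to 84 reads in RUNX1-IT1 ASO libraries.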
